A study of Homo sapiens with 64 samples.

Results

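MYC is a transcription factor that acts as part of a dimer, and the genes of the proteins that compete for its partner were measured here in slowly dividing and cycling colorectal cancer cells. The genes described are the 10 members of the MYC, MAX and MXD network listed in the count files: MYC, MYCN, MYCL, MAX, MXD1, MXD3, MXD4, MXI1, MNT and MLX. They were found by gene symbol through their Ensembl identifiers, and all 10 were present among 54127 listed genes. The members were chosen with earlier results of these data known, and their rows were then found by symbol, with no measured value used.

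MYC, MYCN and MYCL each bind DNA as dimers with MAX, at a short sequence called the E-box (CACGTG), and raise the transcription of genes for growth, ribosome production and cell cycle entry. MXD1, MXD3, MXD4 and MXI1 also dimerise with MAX and bind the same sequence, but recruit SIN3 and histone deacetylases and lower transcription. MXD1, MXD4 and MXI1 are known for their expression in differentiating and non-dividing cells, and in the intestinal epithelium MYC is a long-known target of WNT signalling. MNT is a broadly expressed repressor that pairs with MAX or MLX, and MLX links the network to the glucose-sensing factors MLXIP and MLXIPL.

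Colorectal cancer cell lines were loaded with CFSE, a dye diluted at each division, and grown as non-adherent spheroids in serum-free medium with EGF and bFGF. At day 6 they were sorted by flow cytometry into label-retaining cells (LRCs), which had kept the dye, and the bulk of cycling cells, called non-LRCs. The 6 lines were HT55 and SW948 (subtype CCS1), RKO and SW48 (CCS2), and DLD1 and HCT15 (CCS3). Each population of each line had 4 libraries, giving 24 LRC and 24 non-LRC samples. The other 16 samples were DLD1 controls that had not been sorted into LRCs, carrying CFSE or the solvent DMSO, taken at day 1 or at the time the sample labels call day 5, again with 4 libraries each. The study's methods give days 1 and 6 for these controls. All sorted cells had been loaded with CFSE, and the populations differed in how much of it they held at the sort. Each line is an established culture, and the study's methods call the 4 libraries of a group biological replicates. Within a line the p-values measure the spread between replicates of that line. Across lines the test takes the 48 libraries, not the 6 lines, as its units. Its spread also holds differences of the LRC effect between lines, and without a block it ignores replicate numbers. No p-value here measures the spread between tumours. The samples are bulk RNA, in which fewer cells of a type and less RNA per cell cannot be told apart.

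The libraries held between 12237225 and 20913455 reads on genes. Levels are given as normalised CPM, read counts scaled to a common library size, and differences as log2 fold changes with their standard errors (SE) from edgeR's quasi-likelihood test, with p-values adjusted over all genes tested and a threshold of 0.05. Of the markers of other cell types, CD3E (T cells) was at 0 in 64 of 64 libraries and HBB (red cells) in 55. PTPRC, a leukocyte marker, was at 0 in 51 libraries and ran from 7.50 to 22.3 CPM in SW48, and CD68, a lysosomal protein used as a macrophage marker, was between 1000 and 1617 CPM in RKO. The summed CPM of 7 colorectal epithelial markers ranged from 219 to 334 in the 8 RKO libraries, where VIL1 stayed below 1 CPM and EPCAM averaged 16.3 ± 1.16 CPM (SD, n = 4 non-LRC). In the other lines this sum was between 2703 and 16693. Across the lines LRCs differed from non-LRCs in 1 of these 7 epithelial markers, VIL1, which was lower in LRCs. Of the 4 testable markers of other cell types 1 differed, CD68, which was higher, with a log2 fold change of 0.77 (SE 0.14, adjusted p = 4.22e-05). Of all genes tested in this comparison 22.9% passed. The summed CPM of the 7 measured markers of other cell types ranged from 1001 to 1143 in RKO non-LRCs and 1252 to 1618 in RKO LRCs, and in the other lines from 4.55 to 85.7 in non-LRCs and 7.79 to 109.8 in LRCs. The part of these markers in the results below was not tested.

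The E-box is shown here because it is the sequence for which the network's dimers compete. In RefSeq's promoters (GRCh38.p14, from 250 bases before to 50 bases after each start) CACGTG was present in 2548 of 35116 entries, or 7.26%. It reads the same on both strands. Of the members, 9 had promoter entries, and 3 of those 9 genes held it: MXD4, MNT and MLX. Their 60-base windows are given on the gene's strand, 5′ to 3′, with the E-box in capitals.
MXD4, chr4:2262300-2262359, minus strand: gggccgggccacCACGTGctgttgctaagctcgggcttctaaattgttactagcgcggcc
MNT, chr17:2401221-2401280, minus strand: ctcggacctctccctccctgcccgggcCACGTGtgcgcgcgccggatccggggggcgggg
MLX, chr17:42567023-42567082, plus strand: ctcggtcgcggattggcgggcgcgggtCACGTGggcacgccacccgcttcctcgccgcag
The first base of the E-box lies 238 bases before the start of MXD4, 193 before that of MNT and 50 before that of MLX. MYC was not among the entries.

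Of a list of 24 textbook MYC targets, 19 had promoter entries and 10 of these 19 genes held the E-box, in 10 of their 23 entries or 43.5%, against 3 of 12 entries or 25% for the members. Windows of 3 of them, whose transcripts are described further on, are given: CDK4, a G1 cyclin-dependent kinase, APEX1, a DNA repair endonuclease, and SRM, which makes spermidine.
CDK4, chr12:57752494-57752553, minus strand: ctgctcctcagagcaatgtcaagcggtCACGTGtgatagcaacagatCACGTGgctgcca
APEX1, chr14:20455094-20455153, plus strand: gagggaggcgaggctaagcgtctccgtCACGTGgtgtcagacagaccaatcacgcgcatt
SRM, chr1:11060185-11060244, minus strand: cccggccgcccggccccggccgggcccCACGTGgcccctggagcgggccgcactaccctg
A match describes letters in a window and is no measure of binding. Coordinates of transcripts given elsewhere are in GRCh37, the build of the count files.

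Across the 6 lines, 3 of the 10 members differed between LRCs and non-LRCs. MXD1 and MXI1 were higher in LRCs and MYC was lower, and the remaining 7 did not pass the test. Over all 16603 genes tested, 22.9% passed, 12.2% higher and 10.7% lower in LRCs, so 3 of 10 members is near the share of genes at large. The median log2 fold change of the 10 members was 0.01, the same as the median of all genes.

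MXD1 (ENSG00000059728, chromosome 2, 70124820 to 70170077, plus strand) had the largest change of the network across lines, a log2 fold change of 0.54 (SE 0.07, adjusted p = 1.32e-07), with higher LRC values in 24 of 24 same-numbered library pairs. In SW948 and RKO same-numbered libraries did not deviate together, so a pair there, here and below, matches numbers only. For MXD1 in HT55, non-LRC libraries held 148.1, 147.6, 124.9 and 131.6 CPM and LRC libraries 214.2, 166.4, 194.0 and 189.9 CPM. In SW948 the values were 51.7, 51.6, 48.5 and 47.5 CPM in non-LRCs and 76.2, 84.4, 78.0 and 47.7 CPM in LRCs. Every HT55 LRC library lay above every non-LRC library, whereas SW948 LRC replicate 4 stood at the level of the non-LRCs. In RKO, non-LRCs held 47.6, 45.3, 35.7 and 45.7 CPM and LRCs 61.3, 60.2, 51.3 and 60.5 CPM. In SW48, the line with the lowest level, the values were 15.9, 11.3, 15.8 and 15.2 CPM against 22.9, 19.9, 21 and 24.2 CPM. Both lines had LRC libraries wholly above their non-LRC libraries. In DLD1, non-LRCs held 29.7, 42.1, 27.4 and 31.1 CPM and LRCs 48.6, 56.3, 35 and 36.5 CPM. In HCT15 the values were 27.8, 29.2, 18 and 23.5 CPM against 56, 52.9, 37.4 and 31.4 CPM. HCT15 had no overlap and the largest shift, its LRC mean being 80.5% above its non-LRC mean, while DLD1 overlapped because non-LRC replicate 2 exceeded LRC replicates 3 and 4. The exons of MXD1 share 237 bases with SNRNP27, a splicing factor gene on the same strand.

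MXI1, the other repressor that was higher in LRCs (ENSG00000119950, chromosome 10, 111967363 to 112047123, plus strand), had a log2 fold change of 0.27 across lines (SE 0.07, adjusted p = 0.00205), with 23 of 24 pairs higher in LRCs. In HT55 it stood at 25.2, 36.4, 29.1 and 25.1 CPM in non-LRCs and 56.9, 37.9, 55.5 and 45.7 CPM in LRCs. In HCT15 the values were 44.8, 44.4, 44.9 and 47 CPM against 52.5, 50.5, 53.9 and 53.3 CPM. These were the lines in which the libraries did not overlap. In DLD1, non-LRCs held 37.6, 44.4, 39.3 and 39.8 CPM and LRCs 44, 46, 46.1 and 46 CPM. In SW948 the values were 60.8, 57.7, 55.2 and 50.4 CPM against 81.5, 74.1, 62.3 and 51.9 CPM. In both lines all 4 pairs were higher in LRCs and the groups overlapped at their edges. In RKO, non-LRCs held 43.1, 45.6, 38.3 and 48.2 CPM and LRCs 53.9, 55.2, 41.6 and 50.1 CPM. In SW48 the values were 82.8, 43.4, 85.9 and 72.0 CPM against 79.6, 53.2, 86.6 and 74.0 CPM. SW48 held the only pair in which MXI1 was lower in LRCs, and its non-LRC replicate 2 was far below the other 3.

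MYC (ENSG00000136997, chromosome 8, 128747680 to 128755197, plus strand) was lower in LRCs, with a log2 fold change of -0.24 across lines (SE 0.07, adjusted p = 0.008) and 22 of 24 pairs lower. In RKO, the line with the most MYC, non-LRCs held 625.8, 619.2, 553.7 and 677.0 CPM and LRCs 504.2, 473.4, 455.5 and 454.7 CPM. In DLD1 the values were 208.9, 195.6, 227.0 and 232.0 CPM against 148.3, 138.2, 189.9 and 171.1 CPM. In SW948 they were 339.9, 369.3, 323.4 and 336.5 CPM against 268.1, 257.4, 274.3 and 322.9 CPM. These 3 lines had LRC libraries wholly below their non-LRC libraries, DLD1 with a mean 25% lower, RKO with one 23.7% lower and SW948 with one 18% lower. In SW48, non-LRCs held 528.6, 273.7, 401.2 and 506.1 CPM and LRCs 430.2, 254.4, 374.0 and 489.6 CPM. In HT55 the values were 167.6, 308.3, 232.0 and 193.1 CPM against 169.8, 289.5, 174.7 and 203.2 CPM. In HCT15, the line with the least MYC, they were 107.0, 121.5, 103.8 and 104.4 CPM against 106.3, 113.6, 96.8 and 102.5 CPM. In SW48 and HCT15 every pair was lower in LRCs although the groups overlapped, and in HT55 the 4 pairs were split evenly. The MYC call was lost without replicate 3 of each group (log2 fold change -0.24, adjusted p = 0.0557), without the RKO line (-0.20, adjusted p = 0.073) and without the DLD1 line (-0.20, adjusted p = 0.0565). MXD1 and MXI1 remained higher under each of these omissions.

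**Figure D1:**
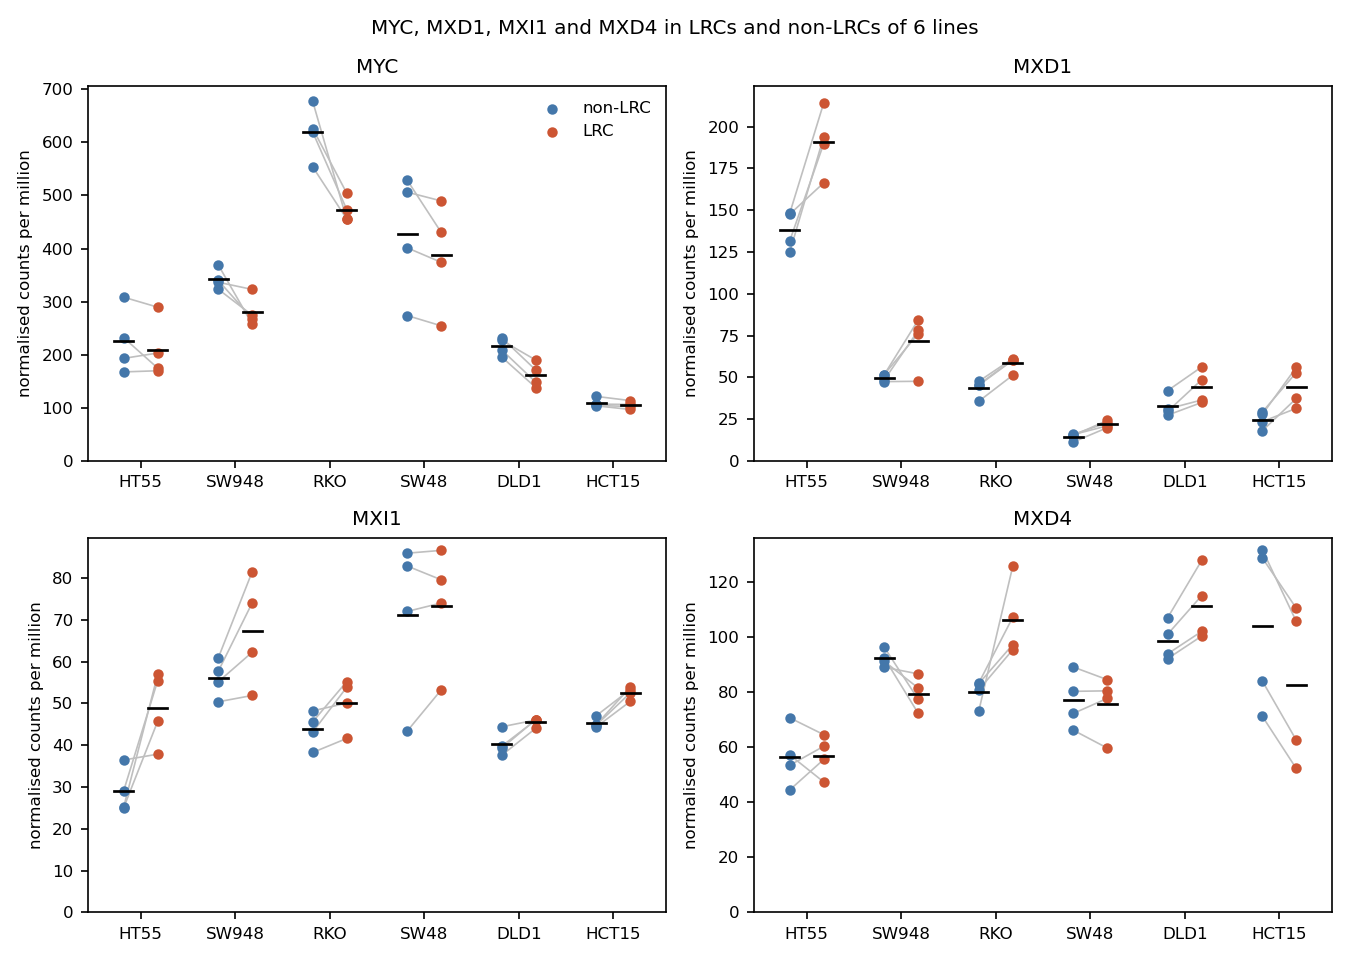
Normalised CPM of MYC, MXD1, MXI1 and MXD4 in each of the 48 sorted libraries, by line, with non-LRCs beside LRCs; grey lines join libraries with the same replicate number and black bars are means of 4. In LRCs MXD1 is higher in 24 of 24 pairs and MXI1 in 23, MYC is lower in 22 of 24, and MXD4 is higher in 12 and lower in 12. Same-numbered libraries did not deviate together in SW948 and RKO, so pairs there match numbers only.

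The other members showed no common shift. MAX, the shared partner, had a log2 fold change of -0.01 across lines (SE 0.03, adjusted p = 0.891), the tightest estimate of the network together with MLX, at 0.02 (SE 0.03, adjusted p = 0.718). MNT was at 0.06 (SE 0.05, adjusted p = 0.365), MYCL at 0.03 (SE 0.10, adjusted p = 0.879) and MXD4 at 0.00 (SE 0.07, adjusted p = 0.99). MXD3, a family member known for its expression in dividing cells, was at -0.06 (SE 0.09, adjusted p = 0.655), and MYCN at -0.04 (SE 0.16, adjusted p = 0.876). MXD3 values are uncertain because its exons share 1148 bases with PRELID1 on the opposite strand, a gene with 111174 counts over the 64 samples against 7598 for MXD3, and 926 bases with RAB24. Whether the counting used strand is not given in the sources used here. The same holds for MLX, which shares 775 exon bases with PSMC3IP, and for MAX, which shares 822 with FNTB.

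Within lines, RKO had the most calls. There, 5 of the 9 members tested passed, 3 higher and 2 lower in LRCs, against 41.5% of all genes tested in that line (20.4% higher and 21% lower). MYC fell by 0.42 on the log2 scale (SE 0.07, adjusted p = 0.000416) and MAX by 0.26 (SE 0.07, adjusted p = 0.00727). MAX held 61.8, 65.9, 67.1 and 68.4 CPM in non-LRCs and 53.1, 59.1, 56.8 and 54.1 CPM in LRCs, with no overlap, and RKO was the only line in which its libraries were apart. MXD1 rose by 0.40 (SE 0.09, adjusted p = 0.00259), MXD4 by 0.38 (SE 0.09, adjusted p = 0.00247) and MNT by 0.23 (SE 0.07, adjusted p = 0.0204). MNT held 44.5, 46.2, 41.5 and 44.2 CPM in non-LRCs and 57.9, 52, 50.2 and 50.5 CPM in LRCs, again with no overlap. The MAX call was lost without replicate 4 (adjusted p = 0.0739), and the MNT call without replicate 1 (adjusted p = 0.083) or replicate 4 (adjusted p = 0.0681). In a single fit of all 48 sorted samples, which shares 1 estimate of the spread, the RKO values of MYC (-0.40, adjusted p = 0.0636), MXD1 (0.41, adjusted p = 0.0513), MXD4 (0.40, adjusted p = 0.0702) and MNT (0.24, adjusted p = 0.102) did not pass, and without the filter on low counts MNT did not (0.21, adjusted p = 0.0711).

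DLD1 had 1 member past the threshold, MYC, at -0.40 (SE 0.10, adjusted p = 0.0188), against 14.6% of genes, and this call was lost without replicate 1 (-0.38, adjusted p = 0.103), without replicate 4 (-0.40, adjusted p = 0.0795) and in the single fit of all 48 samples (-0.42, adjusted p = 0.139). Libraries with the same number deviated together in DLD1, and with the replicate number as a block 6 members passed, against 33.8% of genes. These were MYC (-0.41, adjusted p = 1.46e-07), MXD1 (0.44, adjusted p = 1.23e-05), MYCL (0.36, adjusted p = 0.000767), MXI1 (0.19, adjusted p = 0.0106), MXD4 (0.18, adjusted p = 0.00202) and MAX (0.16, adjusted p = 0.015). MYCL, a MYC paralogue, held 18.9, 16.7, 20.9 and 25.8 CPM in DLD1 non-LRCs and 24.6, 19.1, 31.3 and 29.9 CPM in LRCs. It was higher in LRCs in each pair although the groups overlapped.

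HCT15 had 0 of 10 members past the edgeR threshold, against 0.977% of genes. An unadjusted p under 0.05 was found for 2 members and for 2415 of 14017 genes. DESeq2 called 1 member and 528 genes. With the replicate block, 3 members passed, against 21.3% of genes. They were MXD1 (0.85, adjusted p = 8.57e-06), MXI1 (0.22, adjusted p = 0.0179) and MXD4 (-0.34, adjusted p = 0.00117). MXD4 in HCT15 held 84.0, 71.2, 131.7 and 128.7 CPM in non-LRCs and 62.5, 52.2, 105.6 and 110.4 CPM in LRCs. Replicates 1 and 2 were low and replicates 3 and 4 high in both populations, and each pair was lower in LRCs.

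SW48 had 0 of 9 members past the edgeR threshold, against 0.796% of genes. An unadjusted p under 0.05 was found for 1 member and for 1728 of 13196 genes. DESeq2 called 1 member and 360 genes. The replicate block gave 1, MXD1 (0.60, SE 0.09, adjusted p = 0.00371), against 9.69% of genes. In HT55 edgeR called 0 of 10 members and 0% of genes, with and without the block, although 1005 genes and 3 members had an unadjusted p under 0.05 without it, and DESeq2 called 37 genes and 2 members. The 3 members were MXI1 at 0.76 (SE 0.16, adjusted p = 0.433), MXD1 at 0.47 (SE 0.10, adjusted p = 0.452) and MYCN at 0.64 (SE 0.19, adjusted p = 0.535). MYCN in HT55 held 3.73, 4.74, 4.56 and 2.80 CPM in non-LRCs and 7.10, 6.17, 5.65 and 5.72 CPM in LRCs, with no overlap. In SW948 edgeR again called 0 of 10 members and 0% of genes, with 2350 genes and 4 members at an unadjusted p under 0.05, and DESeq2 called 245 genes and 1 member. These 4 members were MXD1 at 0.53 (SE 0.14, adjusted p = 0.147), MYC at -0.28 (SE 0.08, adjusted p = 0.159), MXI1 at 0.27 (SE 0.12, adjusted p = 0.264) and MXD4 at -0.21 (SE 0.07, adjusted p = 0.196). MYCN, at -0.37 (SE 0.18, adjusted p = 0.299), was not among them.

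**Figure D2:**
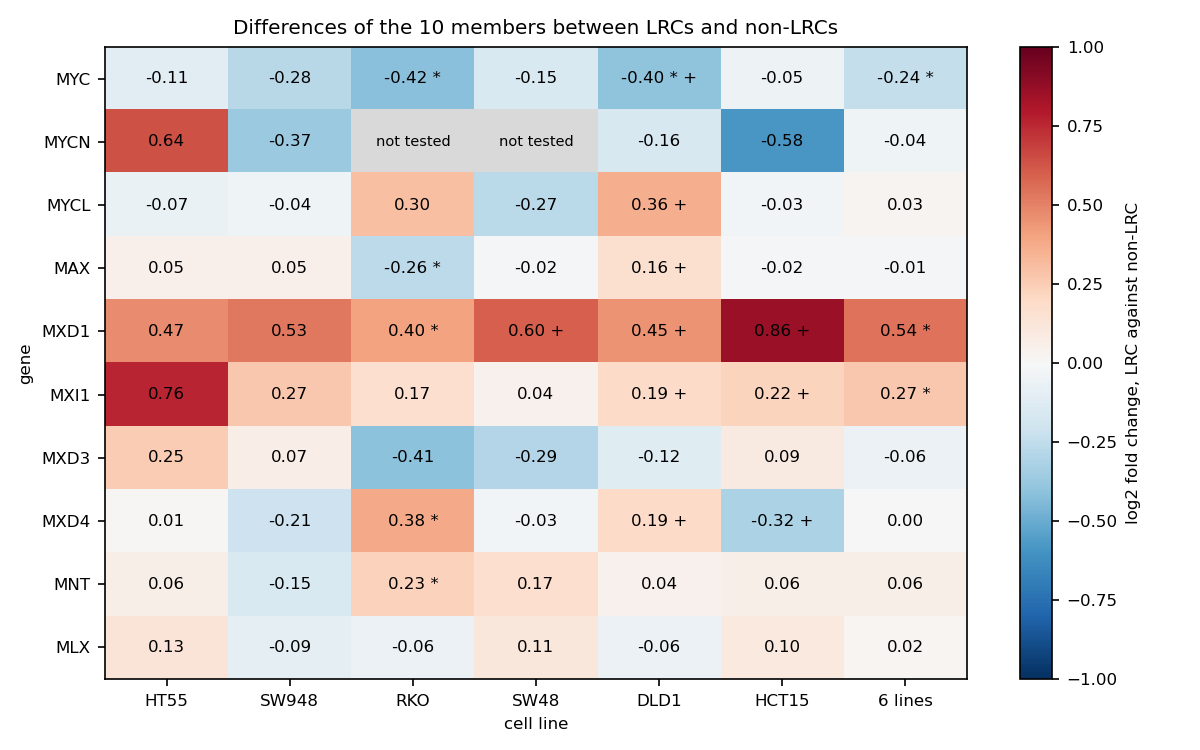
Heat map of the log2 fold change of LRCs over non-LRCs for the 10 members (vertical) in each line and across the 6 lines (horizontal); an asterisk marks an adjusted p under 0.05 and a plus sign the same with the replicate block in HT55, SW48, DLD1 and HCT15. MXD1 is above 0 in every line, from 0.40 in RKO to 0.86 in HCT15, and MYC is below 0 in every line, from -0.05 in HCT15 to -0.42 in RKO; MYCN was not tested in RKO and SW48.

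Whether the LRC effect itself differed between lines was tested with an interaction term. Without a block, edgeR called 0 of 10 members, against 14.3% of genes. An unadjusted p under 0.05 was found for 3 members and for 5017 of 16603 genes. DESeq2 called 0 members and 3369 genes. In the 4 lines whose numbers paired the libraries, the block gave 4 members, against 20.4% of genes: MXD4 (adjusted p = 0.00437), MXI1 (adjusted p = 0.00477), MYC (adjusted p = 0.0217) and MYCN (adjusted p = 0.0234). Across those 4 lines 16.1% of genes passed for the LRC effect itself, and so did MXD1 (0.58, adjusted p = 4.25e-06), MXI1 (0.30, adjusted p = 0.0103) and MYC (-0.18, adjusted p = 0.00962). MXD1 was not among the members whose effect differed between these lines (adjusted p = 0.0689).

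Levels in cycling cells differed between lines for 10 of 10 members, as they did for 98.3% of genes. The network's members ranged most widely in MYCN, MYCL, MXD1 and MYC. MYC in non-LRCs was highest in RKO at 619.0 ± 50.6 CPM (SD, n = 4), followed by SW48 at 427.4 ± 117, SW948 at 342.3 ± 19.3, HT55 at 225.2 ± 61.4, DLD1 at 215.9 ± 16.7 and HCT15 at 109.2 ± 8.34 CPM. RKO stood apart from all others, SW48 overlapped SW948, HT55 overlapped DLD1, and HCT15 was apart at the bottom, 5.67-fold below RKO.

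MXD1 in non-LRCs was highest in HT55, at 138.0 ± 11.7 CPM, 9.51-fold above SW48 at 14.5 ± 2.18 CPM. SW948 at 49.8 ± 2.16 and RKO at 43.6 ± 5.37 overlapped, as did RKO and DLD1 at 32.6 ± 6.52, and DLD1 and HCT15 at 24.6 ± 5.04 CPM. MYCL was also highest in HT55, at 76.7 ± 15.3 CPM, apart from DLD1 at 20.6 ± 3.89 CPM and 19.5-fold above RKO at 3.93 ± 0.511 CPM. The lines between DLD1 and RKO, which were SW48 at 14.4 ± 7.11, HCT15 at 11.4 ± 1.06 and SW948 at 10.4 ± 0.923 CPM, each overlapped the next in this order, with SW948 apart from RKO. MYCN, which is best known from neural tumours, was highest in SW948 at 6.32 ± 1.22 CPM, followed by HT55 at 3.96 ± 0.889, DLD1 at 3.12 ± 1.43, HCT15 at 0.986 ± 0.436 and SW48 at 0.296 ± 0.112 CPM. In RKO, 0 reads were counted in 8 of 8 libraries, and 3 counts in a library, the limit taken for a count of 0, would be 0.151 to 0.236 CPM. These limits cover counting error only.

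The remaining members varied less between lines. MXD3 spanned 2.82-fold, from 11.3 ± 1.46 CPM in SW948 to 4.0 ± 0.974 in HT55, and MXI1 2.45-fold, from 71.0 ± 19.4 CPM in SW48 to 29 ± 5.33 in HT55. MXD4 spanned 1.84-fold, from 103.9 ± 30.8 CPM in HCT15 to 56.4 ± 10.9 in HT55, and MLX 1.84-fold, from 102.9 ± 2.60 CPM in SW948 to 55.8 ± 2.40 in DLD1. MAX spanned 1.58-fold, from 66.6 ± 8.34 CPM in HCT15 to 42 ± 2.07 in SW948, and MNT 1.52-fold, from 67.1 ± 5.98 CPM in HT55 to 44.1 ± 1.96 in RKO. HT55 thus had the lowest mean of MXI1, MXD3 and MXD4 among the 6 lines and the highest of MXD1, MYCL and MNT, with libraries apart from the next line for MXI1, MXD1 and MYCL and overlapping it for MXD3, MXD4 and MNT.

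Between genes, levels were compared per kilobase of summed exon. Over the 48 sorted libraries MYC averaged 48.5 CPM per kb, above MLX at 18.6, MXD4 at 12.4, MXD1 at 9.64, MAX at 9.09 and MXI1 at 8.79. MNT was at 6.20, MYCL at 4.61, MXD3 at 1.39 and MYCN at 0.889 CPM per kb. These means pool lines that differ. In non-LRCs MXD1 was above MAX in HT55, at 21.7 against 8.26 CPM per kb, and in SW948, at 7.84 against 6.72, and below it in the other 4 lines, as in SW48 at 2.29 against 10.5. MYCL reached 15.4 CPM per kb in HT55 and at most 4.14 in the other lines' non-LRCs. MYC had the highest mean of the network in non-LRCs of each line.

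**Figure D3:**
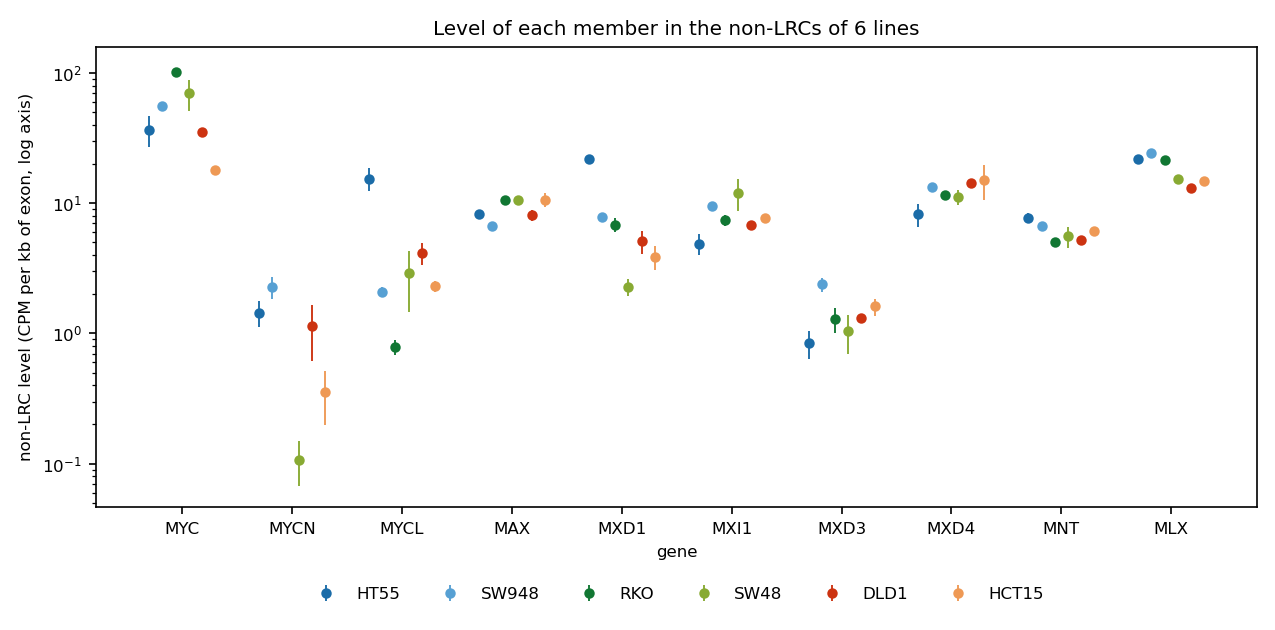
Level of each member in non-LRCs of the 6 lines, as CPM per kb of summed exon on a log axis, mean ± SD of 4 libraries. MYC spans 101.3 CPM per kb in RKO to 17.9 in HCT15 and MXD1 21.7 in HT55 to 2.29 in SW48; MYCN in RKO is at 0 and is not drawn.

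As a description of the balance of the 2 arms, the summed per-kilobase level of MXD1, MXD3, MXD4, MXI1 and MNT was divided by that of MYC, MYCN and MYCL in each library. The ratio was lowest in RKO non-LRCs at 0.317 ± 0.015 (SD, n = 4) and highest in HCT15 LRCs at 1.84 ± 0.239. In RKO the 4 non-LRC libraries gave 0.306, 0.325, 0.334 and 0.302, and the LRC libraries 0.531, 0.508, 0.499 and 0.514. In DLD1 the values were 0.797, 0.954, 0.775 and 0.733 in non-LRCs against 1.21, 1.40, 1.0 and 1.04 in LRCs. The groups were apart in both lines. The mean ratio went from 0.834 to 1.13 in HT55, from 0.660 to 0.869 in SW948, from 0.454 to 0.532 in SW48 and from 1.69 to 1.84 in HCT15, with overlapping libraries in each. These ratios sum RNA and carry no information on the proteins, and no test was run on them.

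The textbook MYC targets, chosen for roles in ribosome production, translation, nucleotide and polyamine synthesis and the cell cycle, were mostly lower in LRCs. From these same samples the paper reports targets of Myc as the gene set most underrepresented in LRCs. The list here was chosen with earlier results of these data known, so it is no independent test. Across lines 19 of 24 were lower in LRCs, against 10.7% of genes, and 0 higher, and 5 did not pass, with a median log2 fold change of -0.15 against 0.01 over all genes. RRS1, a ribosome assembly factor, fell by 0.30 on the log2 scale (SE 0.04, adjusted p = 2.89e-07). DKC1, the pseudouridine synthase dyskerin, fell by 0.21 (SE 0.04, adjusted p = 1.57e-05), and NOLC1, a nucleolar chaperone, by 0.20 (SE 0.03, adjusted p = 2.24e-05). Of the genes whose promoter windows are shown above, SRM fell by 0.24 (SE 0.04, adjusted p = 2.92e-05), APEX1 by 0.19 (SE 0.04, adjusted p = 0.000304) and CDK4 by 0.14 (SE 0.04, adjusted p = 0.00336). Of the 10 targets with an E-box in the promoter, 6 were lower in LRCs, and of the 9 without one, 9 were lower. The targets that did not pass were ODC1 at -0.06, LDHA at -0.01, EIF4E at -0.04, TERT at -0.04 and CCND2 at 0.35.

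By line, in RKO 18 of 24 were lower and 1 higher, which was CCND2, against 21% and 20.4% of genes, and the median was -0.31. In DLD1 15 of 24 were lower and 0 higher, against 7.89% of genes lower, with a median of -0.26, and 21 of 24 were lower with the block. In HT55, SW948, SW48 and HCT15 edgeR called 0 without a block, and with it 2 of 24 were lower and 1 higher in SW48, and 2 of 23 lower and 1 higher in HCT15. The medians were -0.15 in HT55, -0.17 in SW948, -0.11 in SW48 and 0.01 in HCT15. HCT15, the line with the smallest MYC difference, was also the line in which fewest targets were negative, 10 of 23. HT55, with the next smallest MYC difference (-0.11), had 21 of 23 negative. Any link between the MYC and target differences was not tested. The LRC effect differed between lines for 5 of the 24, NOP16, FBL, ODC1, CDC25A and PA2G4, against 14.3% of all genes.

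Proliferation markers were measured beside the targets. Across lines 3 of 8 were lower in LRCs, MCM2 (-0.28, adjusted p = 0.00182), MCM5 (-0.32, adjusted p = 0.00302) and PCNA (-0.23, adjusted p = 0.0471), all parts of the DNA replication machinery, and 0 were higher. Of all genes 10.7% were lower and 12.2% higher. In RKO and DLD1, 6 of 8 markers were lower in each, against 21% of genes in RKO and 7.89% in DLD1. The summed CPM of the 8 markers in RKO ranged from 550 to 1019 in LRCs against 1155 to 1266 in non-LRCs, and in DLD1 from 718 to 1048 against 1168 to 1297. In HCT15 the 8 markers had a median of 0.22 and 8 of 8 were above 0, with sums of 1013 to 1870 in LRCs and 931 to 1604 in non-LRCs. In SW48 the median was -0.52 and 8 of 8 were below 0, although none passed in edgeR, and the sums of 422 to 1010 in LRCs and 476 to 1536 in non-LRCs overlapped. HT55 had a median of 0.07 and SW948 one of 0.00. The part of these differences in the MYC and target values was not tested.

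Among the network's cofactors, 5 of 10 coactivators were lower in LRCs and 0 higher, against 10.7% and 12.2% of all genes. RUVBL1, an ATPase of chromatin remodelling complexes, fell by 0.28 (SE 0.04, adjusted p = 5.09e-07), its partner RUVBL2 by 0.25 (SE 0.04, adjusted p = 6.99e-06) and ACTL6A, an actin-related subunit of such complexes, by 0.18 (SE 0.05, adjusted p = 0.0028). Of 9 corepressors and antagonists, 3 were lower and 1 higher, against the same 10.7% and 12.2% of genes. The histone-binding RBBP7 fell by 0.18 (SE 0.04, adjusted p = 0.00116), and the deacetylases HDAC1 and HDAC2 each fell by 0.11 (adjusted p = 0.00868 and 0.0218). SIN3A, the scaffold through which MXD proteins repress, rose by 0.09 (SE 0.03, adjusted p = 0.0463).

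Of 12 genes that act on MYC protein turnover, 3 were higher and 2 lower in LRCs, against the same 12.2% and 10.7% of genes. SKP2, an F-box protein that ubiquitylates MYC and also promotes its activity, fell by 0.34 (SE 0.06, adjusted p = 5.98e-05). GSK3B, a kinase whose phosphorylation of MYC leads to degradation, rose by 0.14 (SE 0.04, adjusted p = 0.0131) and FBXW7, the ligase subunit that recognises the phosphorylated form, by 0.14 (SE 0.04, adjusted p = 0.0157). Of the other factors of the same helix-loop-helix class, 0 of 3 passed in edgeR. MLXIPL was at -0.18 (SE 0.10, adjusted p = 0.169), MGA at 0.07 (SE 0.05, adjusted p = 0.367) and MLXIP at -0.01 (SE 0.05, adjusted p = 0.895). ARRDC4, an arrestin-like gene regulated by MLX with its glucose-sensing partner, rose by 0.41 across lines (SE 0.10, adjusted p = 0.00179). Its LRC effect differed between lines (adjusted p = 0.0217), with 0.95 in RKO (adjusted p = 3.2e-06), 0.94 in SW48 (adjusted p = 0.251), 0.18 to 0.28 in HT55, SW948 and HCT15 and -0.06 in DLD1, of which RKO alone passed.

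Patterns most like each member's were ranked over the 48 sorted libraries after the mean of each line was removed, among 9548 genes. The libraries share lines, depth and composition, so the values of r are descriptions. MYC was most like WDR5 (r = 0.82), a chromatin protein that binds MYC, followed by APEX1, NLE1 and PEX5 (each r = 0.81) and POLR1E (r = 0.80). MXD1 was most like RIOK3 (r = 0.90) and MPZL3 (r = 0.85), MXI1 most like BLCAP (r = 0.82) and SESN2 (r = 0.77), and MXD4 most like VPS51 (r = 0.87) and PIK3R2 (r = 0.86). MXD3 was most like TROAP (r = 0.79) and KIFC1 (r = 0.78), both of the mitotic spindle. MYCL was most like SNHG29 (r = 0.82), MNT most like CASZ1 (r = 0.80), MYCN most like TPD52L1 and AOPEP (each r = 0.77), MLX most like C1orf43 (r = 0.71) and MAX most like MYL6 and BANP (each r = 0.70). Between members, r was 0.69 for MYCN and MXD4, 0.60 for MXD1 and MXI1 and 0.53 for MYCL and MNT. It was -0.50 for MXD3 and MNT, -0.35 for MXD1 and MXD4 and -0.29 for MXD1 and MYC. MYC had r = 0.50 with MYCL, 0.36 with MNT, 0.19 with MXD4 and 0.02 with MXI1.

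The DLD1 controls address what the dye and the time in culture did to these genes. By principal component analysis, the study's methods attribute nearly all differences among these controls to time in culture and very little to the dye. The results below are tests of single genes, which is a different measure. One library, labelled DMSO day 1 replicate 4, stood apart from its group: over genes its r was 0.953 to 0.964 with the other day 1 DMSO libraries and 0.972 to 0.993 with the day 5 DMSO libraries, while the other 3 had r of 0.989 to 0.995 among themselves. The CFSE day 1 libraries also split, replicates 1 and 2 against 3 and 4 with r of 0.967 to 0.968. With DMSO day 1 replicates 1 to 3, CFSE replicates 3 and 4 had a higher r, 0.985 to 0.986. CFSE replicates 1 and 2 had a lower one, 0.942 to 0.952. Control results are therefore given with and without the library labelled DMSO day 1 replicate 4.

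At day 1 CFSE cells had more MYC and MXD1 and less MXD3 than DMSO cells, 3 of 10 members against 21.8% of genes, and 4 of 9 tested without the library labelled DMSO day 1 replicate 4, against 18% of genes. MYC held 123.4, 131.8, 123.3 and 86.9 CPM in DMSO and 314.0, 363.9, 248.1 and 229.5 CPM in CFSE, a log2 fold change of 1.34 (SE 0.19, adjusted p = 0.000513) and of 1.18 without that library (adjusted p = 0.00143). The groups were far apart, and the difference was 1.37 in replicates 1 and 2 alone (adjusted p = 5.11e-06) and 1.22 in replicates 3 and 4 alone (adjusted p = 0.0205). MXD1 held 27.6, 28.4, 35.9 and 25.2 CPM in DMSO and 70.4, 66.1, 34.5 and 34.1 CPM in CFSE. Its difference of 0.84 (SE 0.21, adjusted p = 0.0118, and 0.73 with adjusted p = 0.0352 without that library) rested on replicates 1 and 2, which gave 1.25 (adjusted p = 2.23e-05) against 0.20 (adjusted p = 0.482) in replicates 3 and 4. The call was lost without replicate 1 (0.63, adjusted p = 0.122) or replicate 2 (0.69, adjusted p = 0.125). MXD3 was at -1.14 (SE 0.26, adjusted p = 0.00732), at -1.36 without that library (adjusted p = 0.00266), and lost its call without replicate 1 (adjusted p = 0.0694) or replicate 2 (adjusted p = 0.0872). MYCL did not pass with that library (0.34, adjusted p = 0.303) and passed without it (0.58, adjusted p = 0.0472).

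At day 5 edgeR called 0 of 10 members between CFSE and DMSO, against 5.13% of genes. An unadjusted p under 0.05 was found for 4 members and for 3537 of 14518 genes. DESeq2 called 2 members and 1521 genes. MYC held 109.0, 129.7, 100.7 and 103.7 CPM in DMSO and 197.7, 181.5, 123.8 and 116.6 CPM in CFSE, a difference of 0.47 (SE 0.19, adjusted p = 0.132). Replicates 1 and 2 were above every DMSO library and replicates 3 and 4 within their range. MXI1 was at -0.91 (SE 0.27, adjusted p = 0.0559) and MXD4 at -0.73 (SE 0.25, adjusted p = 0.0864), and both passed without the library labelled DMSO day 1 replicate 4 (adjusted p = 0.0362 and 0.0175). MXI1 was at -1.34 in replicates 1 and 2 alone (adjusted p = 0.00288) and at -0.27 in replicates 3 and 4 alone (adjusted p = 0.421), and DMSO replicate 1 held the highest value, 103.0 CPM. Without the library labelled DMSO day 1 replicate 4, 2 of 9 members passed at day 5, against 13.3% of genes, and MYC was at 0.48 (adjusted p = 0.0682). The change of the dye effect between days was called for 0 of 10 members by edgeR, against 0.999% of genes. Of the members 3 had an unadjusted p under 0.05, as did 2474 of 14518 genes, and DESeq2 called 2 members and 615 genes. Without that library 1 of 9 passed, MXD3 at 1.21 (adjusted p = 0.0425), against 6.09% of genes.

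From day 1 to day 5 in CFSE, 2 of 10 members fell, against 39.3% of genes. MYC fell by 0.94 (SE 0.19, adjusted p = 0.0014) and MXD1 by 0.88 (SE 0.21, adjusted p = 0.00457), and MXD1 by 0.46 in replicates 3 and 4 alone (adjusted p = 0.102). Without the library labelled DMSO day 1 replicate 4, where 43.7% of genes passed, MYC fell by 0.96 (adjusted p = 0.000424) and MXD1 by 0.89 (adjusted p = 0.00278). In DMSO over the same interval 4 of 10 members passed, against 25.5% of genes: MXI1 at 1.02 (SE 0.27, adjusted p = 0.0159), MAX at 0.45 (SE 0.16, adjusted p = 0.0498), MYCN at 1.58 (SE 0.56, adjusted p = 0.046) and MXD3 at -0.81 (SE 0.26, adjusted p = 0.0328). Without any one of replicates 1, 2 and 3 the count was 0, as was the count over all genes in each of those fits. Without the library labelled DMSO day 1 replicate 4 the member count was 5 of 9 tested, against 42.1% of genes: MYCL (0.70), MXI1 (1.07), MXD4 (0.88), MAX (0.56) and MXD3 (-1.07). MXI1 at day 5 held 103.0, 48.7, 32.3 and 34.3 CPM in DMSO against 24.1, 22.4, 27.7 and 32.9 CPM at day 1, so replicate 1 carried much of its rise, which was 0.44 without it (adjusted p = 0.204). MYC in DMSO did not pass over this interval (-0.07, SE 0.19, adjusted p = 0.794).

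**Figure D4:**
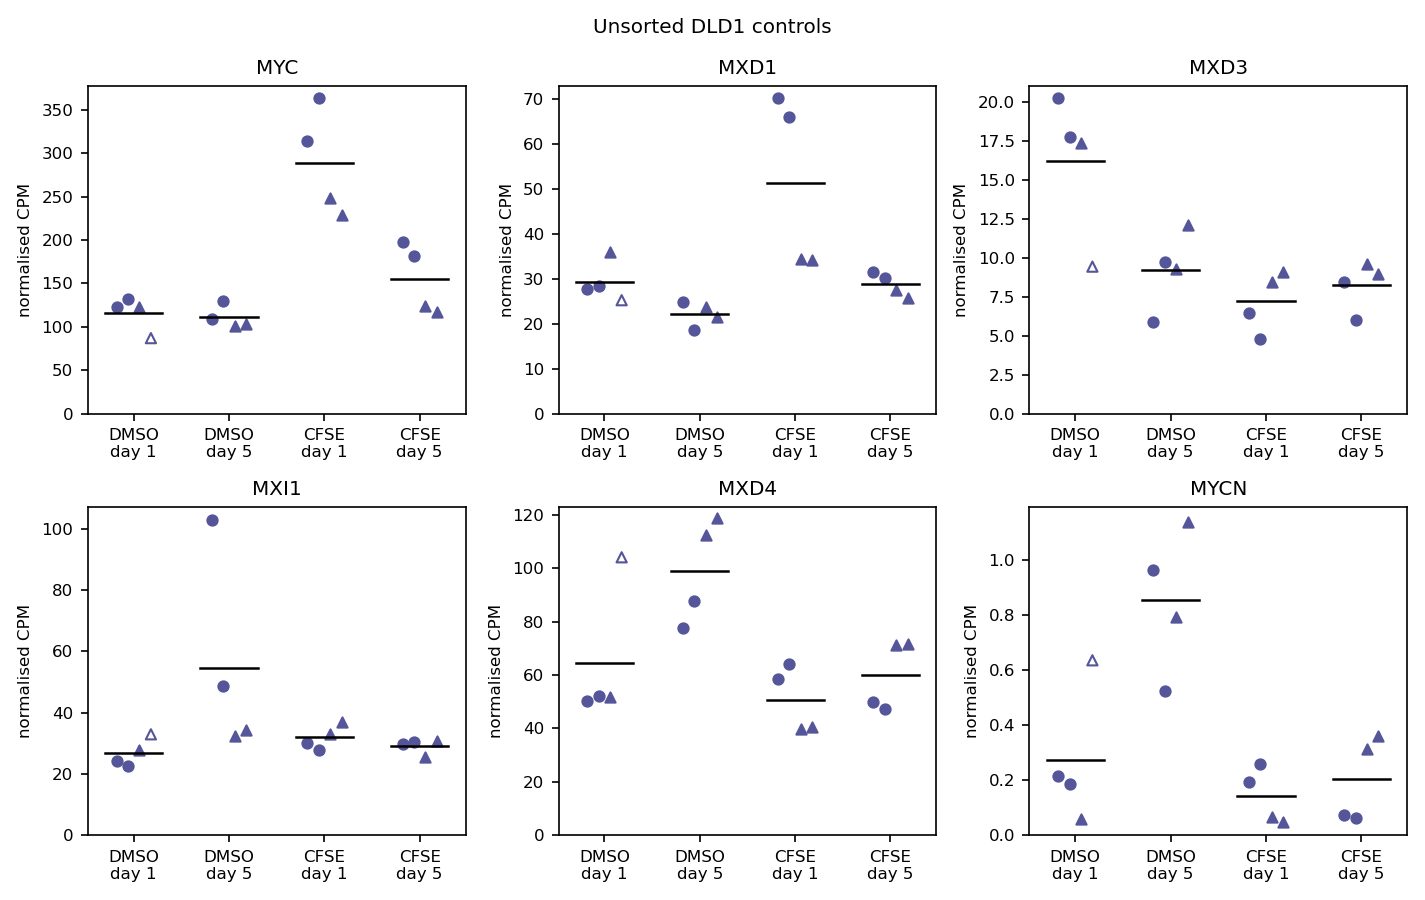
Normalised CPM of MYC, MXD1, MXD3, MXI1, MXD4 and MYCN in the 16 DLD1 control libraries by dye and day; circles are replicates 1 and 2, triangles replicates 3 and 4, the open triangle is the library labelled DMSO day 1 replicate 4, and bars are means of 4. MYC in CFSE at day 1 lies between 229.5 and 363.9 CPM, above the 86.9 to 131.8 CPM of DMSO at day 1.

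Of the textbook MYC targets 10 of 24 were higher with the dye at day 1, against 9.73% of genes, and 8 of 24 at day 5, against 3.11% of genes, with 0 lower at either time. Without the library labelled DMSO day 1 replicate 4 the counts were 4 of 24 at day 1 and 10 of 24 at day 5, against 1068 and 1024 of 14450 genes. Of the proliferation markers 0 of 8 were higher and 1 lower with the dye at day 1, and 7 of 8 were higher at day 5, with the same counts without that library. The shares of all genes higher were the same 9.73% and 3.11%, and 1749 of 14518 were lower at day 1. Set beside the sorted DLD1 cells, MYC was at 110.8 ± 13.1 CPM in DMSO and 154.9 ± 40.7 CPM in CFSE at day 5, and at 215.9 ± 16.7 CPM in non-LRCs and 161.9 ± 23.2 CPM in LRCs (SD, n = 4 each). MXD1 was at 22.1 ± 2.74 and 28.7 ± 2.64 CPM in these controls and at 32.6 ± 6.52 and 44.1 ± 10.2 CPM in the sorted cells. MYCN was at 0.853 ± 0.262 and 0.202 ± 0.158 CPM against 3.12 ± 1.43 and 2.74 ± 0.897 CPM. The sorted and control cells differed in sorting. The sample labels put these controls at day 5 and the study's methods at day 6, the day of the sort. Their levels therefore stand side by side with no test.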

How the data were processed

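RNA of sorted colorectal cancer cells and DLD1 controls was sequenced by the authors as 50-base single-end reads, and the sources used here name TopHat, HTSeq, DESeq and the genome hg19 without versions. The deposited values are raw HTSeq counts per Ensembl gene, 1 file per sample, not normalised. The annotation and the strand setting of the counting are not given in the sources used here. The 5 summary lines that name no gene were left out. Reads outside genes and reads ambiguous between genes made up 7.1% to 16.4% of the total of these and reads on genes. Reads outside genes alone made up 5.188% to 14.77% of it.

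Symbols came from GENCODE v44 lifted to GRCh37, and 39260 of 54127 identifiers (72.53%) had one. A gene entered a test where 4 or more samples of the fit held 10 or more counts. The test was edgeR 4.0.16 (R 4.3.3) with TMM factors and quasi-likelihood, with Benjamini-Hochberg adjustment. Fits across lines held line and population, fits within a line its 8 samples, and the control fits all 16 controls. DESeq2 1.42.0, other size factors, no filter, a replicate block, one fit of all sorted samples and omitted libraries were alternatives, some of them added after seeing the data, among them the fits without the library labelled DMSO day 1 replicate 4, the control fits on replicates 1 and 2 or 3 and 4 alone, without a line or without SW48 replicate 2, and in the paired lines alone. Normalised CPM used TMM factors over all 64 samples, and levels per kb the summed exon length in GENCODE. Scripts were tested on simulated data.

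Replicate numbers come from the sample names. Same-numbered LRC and non-LRC libraries deviated together in every pair in HT55 (r 0.178 to 0.448), SW48 (0.2 to 0.604), DLD1 (0.265 to 0.513) and HCT15 (0.348 to 0.6), not in SW948 (-0.0167 to 0.224) or RKO (-0.0684 to 0.0253), so blocked values stand beside results of the first 4 where they change a call or a count. No 2 libraries held identical counts. The 3 genes of smallest p across lines are named from each list, and beside them the targets with promoter windows shown, all targets that did not pass and SIN3A, chosen after their values were seen. The members and lists were chosen with earlier results of these data known. TXNIP and PECAM1 were not analysed here.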

Additional observations from a re-analysis of the deposited data

Results flagged for a closer look

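In 9 of 158 groups of 4 libraries, 1 member's value lay far from the other 3, with a gap beyond Dixon's critical value for 4 values. Chance gives about 1 in 20 groups. In SW48 non-LRCs replicate 2 was low in MYCL, at 3.85 CPM against 16.7 to 19, and in MXD1, at 11.3 CPM against 15.2 to 15.9. The library labelled DMSO day 1 replicate 4 was high in MAX, at 68.0 CPM against 41.8 to 44.9, and in MXD4, at 104.0 CPM against 50.3 to 52.1. In CFSE day 5 replicate 3 MAX was low, at 52.4 CPM against 63 to 63.4. In RKO LRCs replicate 3 MXD1 was low, at 51.3 CPM against 60.2 to 61.3, and in DLD1 LRCs replicate 1 MXI1 was low, at 44 CPM against 46 to 46.1. In HCT15 LRCs replicate 1 MXD3 was high, at 11.8 CPM against 6.26 to 7.13, and in DLD1 LRCs replicate 3 MNT was high, at 51.5 CPM against 43.7 to 45.

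MXD4 values of LRCs lay on opposite sides of those of non-LRCs in RKO and SW948, with every LRC library above every non-LRC library in RKO (log2 fold change 0.38) and below in SW948 (-0.21). The 2 effects differed by 0.59, a pair chosen after seeing the values. The difference between these 2 lines alone was not tested, and the test over all 6 lines gave an adjusted p of 0.152 in edgeR.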

How the results depend on the processing

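Of 1402 alternative values of 138 gene results, 1271 kept their side of the threshold, 38 lost and 92 gained a call, and 63 that were called under neither setting had another sign. One value changed sign with a call, MXD4 from day 1 to day 5 in CFSE, which was 0.20 and not called and became -0.42 in replicates 1 and 2 alone (adjusted p = 0.00574). The cause was not tested.

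Counts of members called moved as follows. DESeq2 gave 2 in HT55, 1 in SW948, SW48 and HCT15, 2 for CFSE against DMSO at day 5 and 2 for the change of the dye effect between days. Over all genes it called 37 of 13391 in HT55, 245 of 13674 in SW948, 360 of 13196 in SW48 and 528 of 14017 in HCT15. For the dye at day 5 and its change it called 1521 and 615 of 14518. Without the filter there were 2 members called in HT55, SW948 and DLD1, 1 in SW48 and HCT15, 2 for the difference of the LRC effect between lines, 2 for the dye at day 5 and 1 for its change between days. Of 26261 to 27594 genes, 102 were called in HT55, 973 in SW948, 2089 in DLD1, 285 in SW48 and 347 in HCT15. The difference between lines had 2646 of 33671, and the dye at day 5 and its change 1042 and 454 of 30600. The replicate block gave 1 member in SW948 and SW48, 6 in DLD1, 3 in HCT15, 7 for the difference between lines (4 in the 4 paired lines), 2 for the dye at day 5 and 1 for its change, and changed no other count by more than 1.5 times. With it 501 of 13674 genes passed in SW948, 9.69% in SW48, 33.8% in DLD1 and 21.3% in HCT15. For the difference between lines 5584 of 16603 genes passed (20.4% in the 4 paired lines). The dye at day 5 and its change had 1511 and 213 of 14518. One fit of all 48 samples gave 1 member in HT55, RKO, SW48 and HCT15 and 0 in DLD1. Of 16603 genes that fit called 106 in HT55, 4386 in RKO, 486 in SW48, 697 in HCT15 and 646 in DLD1. Leaving out 1 replicate gave 0 to 2 members in HT55 and SW948, 3 to 5 in RKO, 0 to 1 in SW48, 0 to 3 in DLD1, 0 to 2 between lines (1 without SW48 replicate 2), 0 to 5 for time in DMSO, 1 to 5 for the dye at day 1, 0 to 2 for the dye at day 5 and 0 to 2 for its change. Over all genes these omissions gave 0 to 808 calls in HT55, 0 to 940 in SW948 and 3387 to 4721 in RKO. They gave 0 to 497 in SW48, 581 to 1515 in DLD1 and 522 to 2850 between lines (3058 without SW48 replicate 2). Control calls were 0 to 6378 for time in DMSO and 338 to 3384 for the dye at day 1. The dye at day 5 had 0 to 1604 and its change 0 to 1068. Without the library labelled DMSO day 1 replicate 4 these 2 had 2 and 1 members, against 13.3% and 6.09% of genes. Replicates 1 and 2 alone gave 7 members for time in DMSO, 4 for time in CFSE, 6 for the dye at day 1, 4 for the dye at day 5 and 7 for its change, and replicates 3 and 4 alone gave 0, 1 and 1 for the first 3. Over all genes replicates 1 and 2 alone called 7915, 7651, 6688, 4273 and 4739 of 13697, in the same order. Replicates 3 and 4 alone called 0, 1908 and 677 of 13916 for the first 3.

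Over all genes, the calls across lines were 3803 and 2243 to 4237 under the alternatives. They were 0 and up to 808 in HT55, 0 and up to 973 in SW948, 5279 and 3387 to 5472 in RKO, 105 and 0 to 1279 in SW48, 1978 and 581 to 4591 in DLD1, and 137 and 0 to 2987 in HCT15. Between lines they were 2380 and 522 to 5584. In the controls they were 3695 and 0 to 7915 for time in DMSO, 5706 and 1908 to 7651 for time in CFSE, 3162 and 338 to 6688 for the dye at day 1, 745 and 0 to 4273 at day 5, and 145 and 0 to 4739 for its change. MYCN, at 9 to 377 counts per group where it was detected, is limited by depth.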
